A study of Sus scrofa with 24 samples.

Results

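The muscle genes DES, ACTN2 and TTN were read by 6 probe sets, 2 for each gene, among the 23999 probe sets other than controls of an Affymetrix porcine array. They were all the probe sets that the platform annotation gave to exactly 1 of these 3 symbols, and 10069 probe sets carried exactly 1 of 6765 symbols. The 3 genes were chosen by their differences between stretched and static pieces in these same values, so those differences are given below as a description without a test. For each gene the probe set of the higher mean over the 24 arrays is called the leading one, and the second is called the other one.

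Expression was measured in 24 pieces of aortic valve leaflet, 15 by 10 mm, from domestic pigs 12 to 24 months old, with no genotype given. After excision the pieces were kept for 24 h at 37 °C in culture medium with 10% fetal bovine serum, and each RNA (6 µg) was read on its own array. There were 4 groups of 6: pieces under cyclic stretch with 5HT (serotonin) plus Fluox, pieces under cyclic stretch with no agents, static pieces with 5HT plus Fluox, and static pieces with no agents. The doses of both agents and the stretch applied were not given in the sources used here. Stretched pieces hung from sutured loops in a tensile bioreactor and static pieces did not, so the difference between them includes suture and suspension. The labels call the arrays biological replicates, but the leaflets of a valve were randomised over the groups and the animals behind each array were not given. The p-values therefore measure only the spread between these pieces. Fewer cells of a type and less RNA per cell cannot be told apart in such bulk samples.

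Desmin, the product of DES, forms intermediate filaments in muscle cells. They tie neighbouring Z-discs to each other, to the cell membrane and to the nucleus, and in smooth muscle they join the dense bodies. ACTN2 encodes alpha-actinin 2, which cross-links actin filaments at the Z-disc of cardiac and skeletal sarcomeres. TTN encodes titin, the giant elastic protein that reaches from the Z-disc to the M-band and acts as a spring. Valve leaflets are built mainly of interstitial cells, some of which take on smooth muscle features when activated, under a layer of endothelium.

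Values are GCRMA summaries on a log2 scale that ran from 1.12 to 15.6, and the number of arrays limits their precision. Levels under 3 are called the bottom of the scale here. Between 29.0% and 33.7% of all probe sets had a group mean there, and differences there are small whatever the RNA does. Levels of different probe sets are not set against each other. Array controls differed with stretch. The 3′ minus 5′ difference of the GAPDH and EF1A control probe sets, a measure of RNA integrity, averaged 2.64 ± 1.07 log2 units in stretched pieces with 5HT plus Fluox and 2.09 ± 0.71 in stretched pieces with no agents. It averaged 0.82 ± 0.11 in static pieces with 5HT plus Fluox and 0.77 ± 0.14 in static pieces with no agents (SD, n = 6 each). It exceeded 2.5 on 3 arrays, stretched no-agent array 6 (3.06) and stretched 5HT plus Fluox arrays 5 (4.66) and 6 (2.98). Spike-in controls averaged 12.78 in stretched pieces with 5HT plus Fluox, 12.32 in stretched pieces with no agents, 11.52 in static pieces with 5HT plus Fluox and 11.41 in static pieces with no agents. Over all probe sets, 52.5% passed the test between stretched and static pieces with no agents (29.4% higher and 23.1% lower) and 52.2% with 5HT plus Fluox (28.3% higher and 23.9% lower, limma, adjusted p under 0.05). That split depended on the scaling. Subtracting from each array the median of its bright probe sets (mean of at least 8 over the arrays), called centring below, added 0.28 to every stretch difference with no agents and 0.34 with 5HT plus Fluox, and then 48.2% were higher and 17.3% lower with no agents, and 52.9% and 18.0% with 5HT plus Fluox. The differences below are read against this shift.

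By its leading probe set, DES stood at the bottom of the scale in every static piece but 1. It was above the bottom in 5 of 6 stretched pieces with no agents and in 4 of 6 with 5HT plus Fluox. The leading probe set read 9.24, 9.74, 9.49, 6.79, 6.35 and 2.93 on the 6 arrays of stretched pieces with no agents. In static pieces with no agents it lay between 2.56 and 3.12, with a median of 2.60. Thus 5 of the 6 stretched arrays were above every static array, and array 6, the one of the highest 3′ to 5′ difference in its group, fell inside the static range. The means were 7.42 ± 2.63 in stretched and 2.68 ± 0.21 in static pieces (SD, n = 6 each), a log2 difference of 4.74 (SE 0.90) or 26.7-fold. As the static level is at the bottom of the scale, this fold belongs to the deposited values and not to a resolved static level.

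With 5HT plus Fluox the stretched pieces read 3.85, 3.81, 7.17, 6.22, 2.80 and 2.77 for DES, against 2.58 to 2.71 (median 2.61) in static pieces with 5HT plus Fluox. All 6 stretched arrays were above every static one, but arrays 5 and 6 stood close to the highest static array. These 2 arrays were the ones of that group whose 3′ to 5′ difference exceeded 2.5. The means were 4.44 ± 1.84 in stretched and 2.63 ± 0.05 in static pieces (SD, n = 6 each), a log2 difference of 1.81 (SE 0.90) or 3.51-fold. When the 3′ to 5′ difference entered the model as a covariate (the covariate, below), DES differed with stretch by 4.32 (SE 1.14) in 5HT plus Fluox and by 6.55 (SE 0.98) with no agents. The 3′ to 5′ difference did not overlap between static arrays (0.57 to 0.97) and stretched arrays (0.98 to 4.66). The part of stretch and the part of this covariate can therefore not be told apart. That holds also for calls said below to end or hold with the covariate. The part of RNA integrity in these levels was not tested.

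The other DES probe set did not show this pattern. It stayed at 1.81 to 2.54 in stretched pieces with 5HT plus Fluox, 1.89 to 2.70 in stretched pieces with no agents and 1.78 to 1.99 in static pieces with 5HT plus Fluox. In static pieces with no agents 5 arrays read 1.79 to 2.83 and array 3 read 5.33. Its stretch difference was -0.46 (SE 0.41) with no agents, or 0.094 without static no-agent array 3, and 0.17 (SE 0.41) with 5HT plus Fluox. Over the 24 arrays the 2 DES probe sets had a Pearson r of -0.043, so the account of DES rests on 1 probe set. By the leading one, the order of means was stretched with no agents, stretched with 5HT plus Fluox, then both static groups, which did not differ beyond their spread. The stretched groups overlapped (2.93 to 9.74 with no agents and 2.77 to 7.17 with 5HT plus Fluox). Their difference did not pass the test (limma, adjusted p = 0.131).

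**Figure D1:**
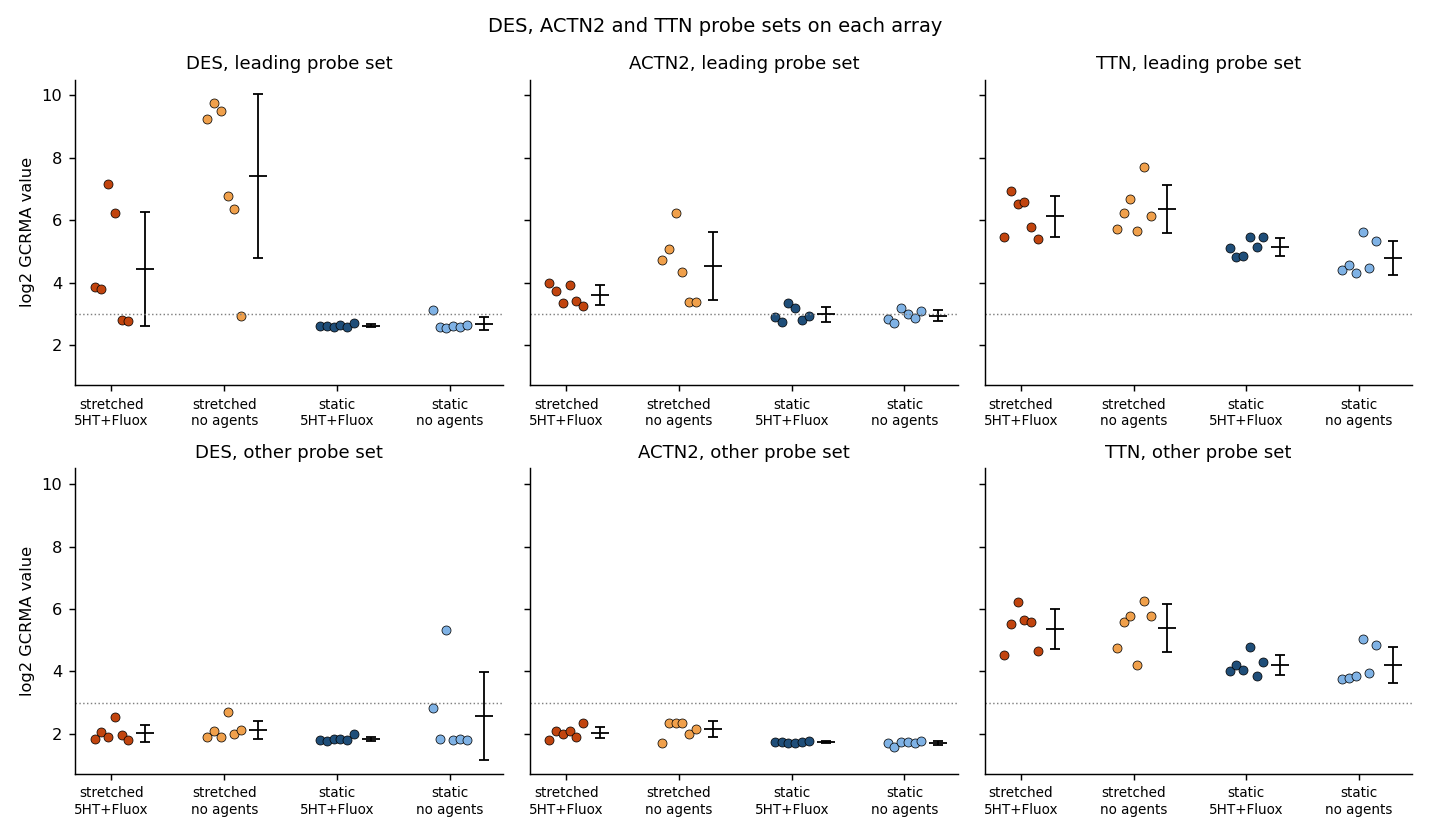
Log2 value of the 6 probe sets of DES, ACTN2 and TTN on each of the 24 arrays. Points are arrays in replicate order within a group, the bar beside them is the mean and SD of the group (n = 6), and the dotted line at 3 marks the bottom of the scale. The leading DES probe set spreads between 2.93 and 9.74 in stretched pieces with no agents and stays at or under 3.12 in all static pieces, while the other DES probe set lies under 3 on all arrays but 1.

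ACTN2 was nearly level among static pieces and higher in stretched ones, and it spread most in stretched pieces with no agents. There the leading probe set read 4.72, 5.09, 6.22, 4.36, 3.39 and 3.37. In static pieces with no agents it lay between 2.72 and 3.18, with a median of 2.93. All 6 stretched arrays were above every static array, with means of 4.52 ± 1.09 in stretched and 2.94 ± 0.18 in static pieces (SD, n = 6 each), a log2 difference of 1.58 (SE 0.33).

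ACTN2 with 5HT plus Fluox lay between 3.27 and 3.98 (median 3.57) in stretched pieces and between 2.74 and 3.36 (median 2.91) in static pieces. Of the 6 stretched arrays 4 were above every static one, and the means of 3.61 ± 0.31 in stretched and 2.98 ± 0.24 in static pieces (SD, n = 6 each) differed by 0.63 (SE 0.33). That value depended on the scaling, at 0.39 after quantile normalization and 0.97 after centring. The other ACTN2 probe set was at the bottom of the scale on all 24 arrays, between 1.57 and 2.35. There it read higher in stretched pieces by 0.45 (SE 0.097) with no agents and 0.31 (SE 0.097) with 5HT plus Fluox, or by 0.73 and 0.65 after centring. At such levels these differences are not taken as a second reading of ACTN2. The r of the 2 ACTN2 probe sets over the 24 arrays was 0.66, and 0.22 once the group means were subtracted. The order of means of the leading probe set was that of DES, again with the static groups within their spread. The difference between the stretched groups did not pass the test for ACTN2 either (limma, adjusted p = 0.196).

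TTN was above the bottom of the scale on every array, and its 2 probe sets moved together. The leading one lay between 5.66 and 7.71 (median 6.18) in stretched pieces with no agents, and between 4.30 and 5.62 (median 4.52) in static pieces with no agents. The groups did not overlap, although the highest static array, number 4, came close to the lowest stretched one. The means were 6.36 ± 0.76 in stretched and 4.79 ± 0.55 in static pieces (SD, n = 6 each), a log2 difference of 1.57 (SE 0.33) or 2.97-fold. With 5HT plus Fluox it lay between 5.41 and 6.94 (median 6.16) in stretched pieces and between 4.84 and 5.47 (median 5.13) in static pieces, and 5 of 6 stretched arrays were above every static one. The means there were 6.12 ± 0.65 in stretched and 5.15 ± 0.28 in static pieces (SD, n = 6 each), a log2 difference of 0.98 (SE 0.33).

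The other TTN probe set averaged 5.35 ± 0.65 in stretched pieces with 5HT plus Fluox and 5.39 ± 0.76 in stretched pieces with no agents, against 4.20 ± 0.33 in static pieces with 5HT plus Fluox and 4.20 ± 0.57 in static pieces with no agents (SD, n = 6 each). Its stretch differences were 1.19 (SE 0.34) with no agents and 1.15 (SE 0.34) with 5HT plus Fluox, with 4 of 6 stretched arrays above every static array each time. In both TTN probe sets the stretched groups lay above the static groups, and neither the stretched nor the static groups differed beyond their spread. The 2 TTN probe sets had an r of 0.91 over the 24 arrays and 0.83 after the group means were subtracted.

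Of the 6 probe sets 2 had stretched arrays all above the static arrays with no agents (leading ACTN2 and leading TTN) and 2 with 5HT plus Fluox (leading DES and the other ACTN2). Over all probe sets such a gap upward was seen in 12.2% with no agents and in 23.7% with 5HT plus Fluox. The median stretch difference of the 6 was 1.38 with no agents and 0.80 with 5HT plus Fluox, beside 0.078 and 0.068 over all probe sets. As the genes were chosen for stretch, nothing is read from these counts and medians.

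**Figure D2:**
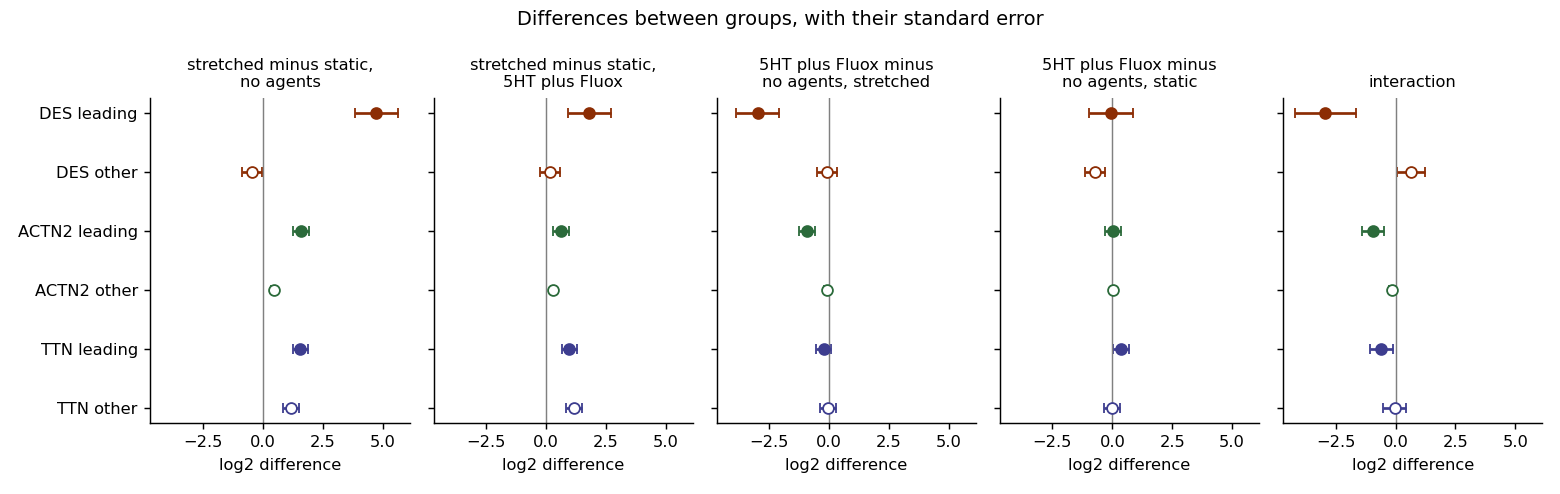
Log2 differences of the 6 probe sets in 5 comparisons, with horizontal bars for 1 standard error on each side (limma, all 24 arrays). Positive values are higher in the group named first, and the interaction is the difference made by 5HT plus Fluox in stretched pieces minus that in static pieces. The leading DES probe set lies farthest from 0 in the first 3 panels and in the interaction, and no probe set passed the test in the last 3 panels.

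The comparison of 5HT plus Fluox with no agents was not used to choose the genes, but it reads the same arrays as the stretch comparisons above. In stretched pieces DES was lower with 5HT plus Fluox, at a mean of 4.44 ± 1.84 against 7.42 ± 2.63 with no agents (SD, n = 6 each). The log2 difference was -2.99 (SE 0.90, 95% confidence interval -4.86 to -1.12), or 7.93-fold lower with 5HT plus Fluox. It did not pass the test (limma, adjusted p = 0.131). No array with 5HT plus Fluox was above every array with no agents, and 2 of 6 were below every one. In the authors' deposited table the same comparison of DES stood at a signed fold of -7.93 with an adjusted p of 0.169.

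That call turned on 1 array with no agents. Without stretched no-agent array 6, at 2.93 the lowest of its group, the difference of DES was -3.88 with an adjusted p of 0.00919 (limma). It was also called when arrays were weighted by their fit to the model (-3.66, adjusted p = 0.00122) and without the 3 arrays of a 3′ to 5′ difference over 2.5 (-3.06, adjusted p = 0.0420). Array 6 had a weight of 0.15 and was 1 of those 3 arrays, so neither setting is separate from leaving it out. Over the 10 alternatives other than leaving out single arrays adjusted p lay between 0.00122 and 0.576. Without array 6, however, 1647 of the 23999 probe sets were called in this comparison, against 14 (0.0583%) with all arrays. With array weights 3733 were called, and without the 3 arrays 321.

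ACTN2 had the same direction in stretched pieces, with 3.61 ± 0.31 with 5HT plus Fluox and 4.52 ± 1.09 with no agents (SD, n = 6 each). The difference of -0.91 (SE 0.33, 95% confidence interval -1.60 to -0.23) did not pass the test (limma, adjusted p = 0.196). It was called without stretched no-agent array 5 (-1.14, adjusted p = 0.0478), without array 6 (-1.14, adjusted p = 0.0326) and with array weights (-1.95, adjusted p = 0.000634). These 2 arrays read lowest of their group for ACTN2 (3.39 and 3.37) and had weights of 0.14 and 0.15. Over all 23999 probe sets 1647 were called without array 6, the most for any array left out, and 3733 with array weights. TTN differed less, by -0.24 (SE 0.33, 95% confidence interval -0.92 to 0.45, adjusted p = 0.832) for the leading and -0.035 (SE 0.34, adjusted p = 0.991) for the other probe set. Among the 6 probe sets 0 were called and 2, leading DES and leading ACTN2, had an unadjusted p under 0.05, beside 0.0583% called and 3555 of 23999 at an unadjusted p under 0.05 over all probe sets, each with all arrays.

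In static pieces DES averaged 2.63 ± 0.05 with 5HT plus Fluox and 2.68 ± 0.21 with no agents, and ACTN2 2.98 ± 0.24 with 5HT plus Fluox and 2.94 ± 0.18 with no agents (SD, n = 6 each). Leading ACTN2 read at least 3 on 2 of 6 static arrays with 5HT plus Fluox and on 3 of 6 with no agents. The mean of each gene is at the bottom of the scale in each group, where a lower level would be hard to read. TTN, which is not, averaged 5.15 ± 0.28 with 5HT plus Fluox and 4.79 ± 0.55 with no agents (SD, n = 6 each). Its difference of 0.36 (SE 0.33, 95% confidence interval -0.33 to 1.04) did not pass the test (limma, adjusted p = 1.00). Of the 6 probe sets 0 were called and 0 had an unadjusted p under 0.05, beside 1 called (0.00417%) and 422 at an unadjusted p under 0.05 among all 23999.

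Whether the difference made by 5HT plus Fluox itself differed between stretched and static pieces was tested as an interaction. It was -2.93 (SE 1.27) for DES, -0.95 (SE 0.46) for ACTN2 and -0.59 (SE 0.47) for TTN, each for the leading probe set. None passed the test (limma, adjusted p = 0.648 for DES, 0.666 for ACTN2 and 0.855 for TTN), and DES alone of the 6 had an unadjusted p under 0.05. Over all probe sets 0 were called (0%) and 1791 had an unadjusted p under 0.05. With array weights DES (-3.64, adjusted p = 0.00816) and ACTN2 (-1.99, adjusted p = 0.00450) were called, among 2174 probe sets.

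DES and ACTN2 were set against each other over the 6 arrays of stretched pieces with no agents. There Pearson's r was 0.82 (exact permutation test, two-sided, p = 0.0431) and Spearman's rho was 0.94 (exact p = 0.0167), and r was 0.85 without the 2 arrays farthest from the DES median. Among the 12 relations computed neither was kept after adjustment (adjusted p = 0.517 for r and 0.200 for rho). In 5HT plus Fluox the r was 0.16 (exact p = 0.681), or 0.95 without the 2 arrays farthest from the DES median. Those were arrays 3 and 4, of the highest DES in that group (7.17 and 6.22), so the 0.95 rests on the arrays of lower DES alone. TTN had an r of -0.075 to DES with no agents (exact p = 0.849) and 0.60 with 5HT plus Fluox (exact p = 0.267).

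The relation of DES to the 3′ to 5′ difference among stretched pieces did not hold after adjustment either. With 5HT plus Fluox rho was -0.89 (exact permutation test, two-sided, p = 0.0333, adjusted p = 0.200) and r was -0.63 (exact p = 0.133), or -0.36 without the 2 farthest arrays. With no agents r was -0.58 (exact p = 0.253) and turned to 0.45 without the 2 farthest arrays, so it rests on them. The part of RNA integrity in the DES levels of stretched pieces was not tested further.

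**Figure D3:**
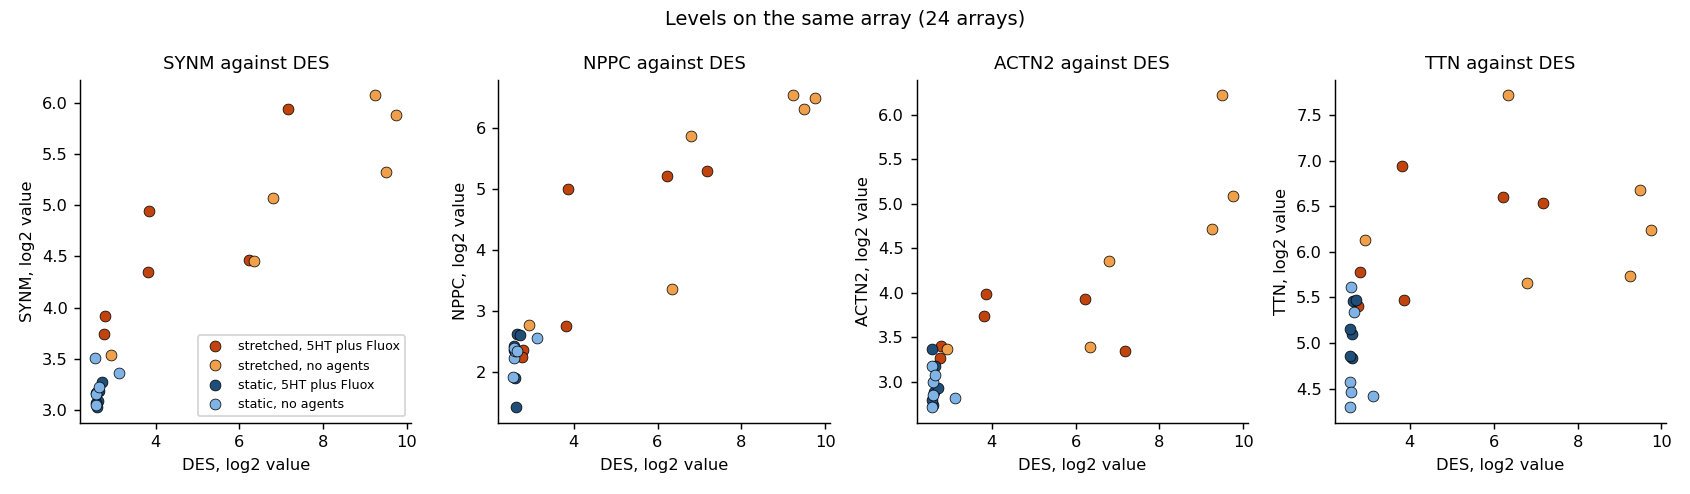
Log2 value of SYNM, NPPC, leading ACTN2 and leading TTN against leading DES on the same 24 arrays, coloured by group. SYNM and NPPC climb with DES among stretched pieces. ACTN2 does so with no agents (r = 0.82). With 5HT plus Fluox its r to DES was 0.16, and the 0.95 seen without 2 arrays leaves out those of the highest DES (7.17 and 6.22). TTN is higher in stretched pieces, and among them its r to DES was -0.075 with no agents and 0.60 with 5HT plus Fluox. None of these relations of ACTN2 and TTN to DES was kept after adjustment.

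Of 6146 probe sets with 1 symbol and a mean of at least 5 in their highest group, those most like DES over the 24 arrays were NPPC (r = 0.93), METTL23 (0.92), SYNM (0.92), FZD5 (0.91) and AURKA (0.89). The limit of 5 is passed through the highest group alone, so the candidates favour probe sets that, like DES, are high in a stretched group and low in static pieces. NPPC (5.22 in stretched and 2.29 in static pieces with no agents) and SYNM (5.06 and 3.24) entered in this way, the arrays share the split between stretched and static pieces, and the likeness is a description of these candidates with no p. NPPC encodes C-type natriuretic peptide and SYNM encodes synemin, an intermediate filament protein that assembles with desmin and vimentin. SYNM read 3.74 to 5.93 (median 4.40) in stretched pieces with 5HT plus Fluox and 3.54 to 6.07 (median 5.20) in stretched pieces with no agents. It read 3.03 to 3.27 (median 3.12) in static pieces with 5HT plus Fluox and 3.04 to 3.51 (median 3.20) in static pieces with no agents. As for DES, its highest stretched no-agent arrays were 1 to 3 and its lowest was 6.

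After the group means were subtracted, the 5 candidates most like DES were SYNM (r = 0.88), RSRP1 (0.91), the polyamine synthesis gene ODC1 (0.87), the nuclear export gene XPO5 (0.87) and the purine synthesis gene GART (0.86). NPPC read 2.24 to 5.29 (median 3.87) in stretched pieces with 5HT plus Fluox and 2.77 to 6.53 (median 6.09) in stretched pieces with no agents, against 1.42 to 2.62 and 1.90 to 2.55 in the static groups in the same order. Most like ACTN2 were KIAA1551 (0.86), DES (0.86), NPPC (0.86), the serine synthesis gene PSPH (0.85) and METTL23 (0.84). After subtracting group means they were LARS (0.85), RBM19, RBM6, INIP and TCIRG1, the last 4 between 0.81 and 0.82. Most like TTN were LOC100520426 (0.91), its own other probe set (0.91), NPL (0.89), DSN1 (0.88) and AP1M1 (0.88). Its other probe set (0.83) and LOC100520426 (0.81) led again after subtracting group means. The lists of DES and ACTN2 share NPPC and METTL23, and the list of TTN shares no gene with either.

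Other genes of the sarcomere and its surroundings were read from 8 lists with 136 symbols, of which 79 were measured, each through its probe set of the highest mean. With no agents 33 of the 79 were higher and 5 lower in stretched pieces, beside 29.4% higher and 23.1% lower over all probe sets. In 5HT plus Fluox 33 were higher and 3 lower, beside 28.3% and 23.9%. Of the 79, 34 were at the bottom of the scale in all groups, and 10 of the 33 higher with no agents and 9 of the 33 with 5HT plus Fluox were among these. After centring, 55 were higher and 4 lower with no agents, and 60 and 1 with 5HT plus Fluox. The shares over all probe sets were then 48.2% and 17.3%, and 52.9% and 18.0%. With the covariate, 17 were higher and 0 lower with no agents, and 16 and 0 with 5HT plus Fluox. In that setting 8.85% of all probe sets were higher and 12.7% lower with no agents, and 7.12% and 8.38% with 5HT plus Fluox. The median list gene differed by 0.16 with no agents and 0.17 with 5HT plus Fluox. Between 5HT plus Fluox and no agents 0 of the 79 were called in stretched or in static pieces, beside 0.0583% and 0.00417% over all probe sets.

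Of 17 measured genes of the thin filament, 4 were higher and 1 lower with no agents, and 4 higher and 2 lower with 5HT plus Fluox. These counts are no larger than the shares over all probe sets (29.4% higher and 23.1% lower with no agents, 28.3% and 23.9% with 5HT plus Fluox), so nothing is read from them about the list, and the genes are described singly. TPM1, a tropomyosin that winds along actin, rose by 2.54 (SE 0.43, adjusted p = 0.000121) with no agents and by 3.78 (SE 0.43, adjusted p = 1.04e-06) with 5HT plus Fluox (limma, all p in the accounts of these lists). NEB, the thin filament ruler nebulin of skeletal muscle, rose by 0.95 (SE 0.21) with no agents and 0.67 (SE 0.21) with 5HT plus Fluox, a call that with 5HT plus Fluox ended after quantile normalization and with the covariate (adjusted p = 0.0502). LMOD3 and TPM2 rose with 5HT plus Fluox, by 1.48 and 1.75, and both calls ended with the 3′ to 5′ covariate. TMOD1, which caps the pointed end of actin filaments, fell by 1.40 with no agents and 1.84 with 5HT plus Fluox, and these calls also ended with the covariate. TPM3 fell by 0.47 with 5HT plus Fluox (adjusted p = 0.0327), a call lost in 10 of 34 alternatives, quantile normalization, centring, the covariate and the omission of static array 1, 2, 3 or 4 or stretched array 5 or 6 with 5HT plus Fluox among them (adjusted p up to 0.948). Of its other probe sets, a bright one was also lower there (-0.64, adjusted p = 0.00995) and one at the bottom of the scale was higher (0.19, adjusted p = 0.0247). TNNI3, TNNT2 and TNNC1, the cardiac troponins, stayed under 3 in all groups.

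Thick filament genes were mostly at the bottom of the scale, 5 of 8 in all groups, and 3 of 8 were higher in each stretch comparison, beside 29.4% with no agents and 28.3% with 5HT plus Fluox over all probe sets, a count near that background. MYL1, a myosin light chain of fast skeletal muscle, averaged 6.76 ± 0.49 in stretched and 5.02 ± 0.40 in static pieces with 5HT plus Fluox, and 6.47 ± 1.22 in stretched and 4.34 ± 1.16 in static pieces with no agents (SD, n = 6 each). It rose by 1.73 (adjusted p = 0.00760) with 5HT plus Fluox and by 2.12 (adjusted p = 0.00215) with no agents. MYBPC1, the slow myosin binding protein, rose by 0.90 with 5HT plus Fluox and 0.87 with no agents. Both genes lost both calls with the covariate. MYH2, a fast skeletal myosin heavy chain, rose by 1.22 with 5HT plus Fluox (adjusted p = 0.00428), and this call also ended with the covariate. MYH7, the slow and cardiac myosin heavy chain, had group means between 1.80 and 2.00.

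The Z-disc, where alpha-actinin 2, titin and desmin meet, held 7 higher and 2 lower of 15 measured genes with no agents and 6 higher and 0 lower with 5HT plus Fluox, beside 29.4% higher and 23.1% lower, and 28.3% higher and 23.9% lower, over all probe sets. FHL1, a LIM protein that binds titin, averaged 12.83 ± 0.29 in stretched and 8.97 ± 0.10 in static pieces with 5HT plus Fluox, and 12.00 ± 0.89 in stretched and 9.04 ± 0.85 in static pieces with no agents (SD, n = 6 each). It rose by 3.86 (SE 0.35, adjusted p = 6.32e-08) with 5HT plus Fluox and by 2.96 (SE 0.35, adjusted p = 2.32e-06) with no agents, all 6 stretched arrays being above the static ones each time. PDLIM3, an actinin-associated LIM protein, rose in both comparisons, to 6.03 ± 0.32 in stretched against 3.54 ± 0.09 in static pieces with 5HT plus Fluox (adjusted p = 8.82e-06), and to 5.24 ± 1.07 against 3.51 ± 0.46 with no agents (adjusted p = 0.000517). BAG3, a co-chaperone that helps to clear damaged Z-disc proteins, rose to 11.26 ± 0.58 in stretched against 10.19 ± 0.45 in static pieces with 5HT plus Fluox (adjusted p = 0.00624), and to 11.45 ± 0.70 against 9.95 ± 0.31 with no agents (adjusted p = 0.000542, SD, n = 6 each). Another probe set of BAG3 was not called (0.36 and 0.92 in the same order). MYOT, the Z-disc protein myotilin, rose by 2.02 with 5HT plus Fluox and 2.32 with no agents, and both calls ended with the covariate. PDLIM4 and PDLIM7 were the 2 that fell with no agents, by 1.63 and 0.88, and both calls ended with the covariate (adjusted p = 0.167 for PDLIM4 and 0.721 for PDLIM7). The call of PDLIM7 also ended after quantile normalization, after centring and without static no-agent array 1 or stretched no-agent array 5 or 6.

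Among M-band genes and partners of the titin kinase region 5 of 8 were higher and 0 lower in each stretch comparison, beside 29.4% higher with no agents and 28.3% with 5HT plus Fluox over all probe sets, and 5 were at the bottom of the scale in all groups. Only 2 of the 8 had a mean of at least 5 in their highest group, a limit passed through that group alone. Both of these were higher with no agents and 1 with 5HT plus Fluox, and the other calls were of dimmer genes. CMYA5, which binds titin and desmin-associated proteins, rose by 2.30 (SE 0.50, adjusted p = 0.000964) with 5HT plus Fluox and by 2.59 (SE 0.50, adjusted p = 0.000412) with no agents, and with 5HT plus Fluox was not called with the covariate (adjusted p = 0.121). SMYD1, a methyltransferase that acts in sarcomere assembly, rose by 0.91 with 5HT plus Fluox and by 0.72 with no agents, and the covariate ended both calls. ANKRD1, a stretch-responsive ankyrin repeat protein that binds titin, gave opposite readings. Its probe set of the higher mean rose by 1.49 with no agents, a call that ended with the covariate, and its other probe set fell by 2.01.

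Of 11 measured intermediate filament genes and membrane or nuclear partners of desmin, 7 were higher with 5HT plus Fluox and 6 with no agents, with 0 lower in either, beside 28.3% and 29.4% higher over all probe sets. VIM, vimentin, the intermediate filament of mesenchymal cells, averaged 14.26 ± 0.12 in stretched and 11.94 ± 0.25 in static pieces with 5HT plus Fluox, and 13.90 ± 0.35 in stretched and 12.21 ± 0.62 in static pieces with no agents (SD, n = 6 each). It rose by 2.33 (SE 0.22, adjusted p = 7.57e-08) and 1.69 (SE 0.22, adjusted p = 5.37e-06) in the same order. SGCD, the membrane protein delta-sarcoglycan, rose by 4.74 (SE 0.40) and 2.76 (SE 0.40), with static levels at the bottom of the scale. DMD, dystrophin, rose by 2.32 and 2.05, LMNA, the nuclear lamin A and C gene, by 2.04 and 1.34, and SYNM by 1.42 and 1.81. These 5 genes were called in both stretch comparisons under each of the 33 or 34 alternatives that measured them, the covariate and the omission of each array in turn among them, as were TPM1, FHL1, PDLIM3 and BAG3. KRT8, KRT18, KRT19 and GFAP were at the bottom of the scale in all groups.

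ACTN1, an alpha-actinin of non-muscle cells, was the 1 measured member of its list of 2. It averaged 12.74 ± 0.12 in stretched pieces with 5HT plus Fluox and 12.27 ± 0.46 in stretched pieces with no agents (SD, n = 6 each), a difference of 0.47 (SE 0.17) that was not called (adjusted p = 0.197). In the stretch comparisons it rose by 1.05 (SE 0.17, adjusted p = 5.50e-05) with 5HT plus Fluox and by 0.45 (SE 0.17, adjusted p = 0.0321) with no agents. The call with no agents was lost in 11 of 34 alternatives.

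Of 8 measured muscle transcription factors 4 were higher and 1 lower with 5HT plus Fluox, and 3 higher and 2 lower with no agents, counts too small to set apart from the 28.3% and 29.4% higher and 23.9% and 23.1% lower over all probe sets. GATA6 rose by 1.74 (SE 0.25) with 5HT plus Fluox and by 1.01 (SE 0.25) with no agents, where it was not called with the covariate (adjusted p = 0.0692). MYF5, a factor of the skeletal muscle lineage, rose by 1.33 with 5HT plus Fluox and 1.77 with no agents and lost both calls with the covariate. MYOCD, myocardin, a co-activator of smooth and cardiac muscle genes, rose by 1.05 with 5HT plus Fluox (adjusted p = 0.00772) at levels under 3. GATA4 and MEF2A fell with no agents, by 1.43 and 1.08, and both calls ended with the covariate. Another probe set of MEF2A differed by 0.025 there (adjusted p = 0.921). With 5HT plus Fluox MEF2A fell by 0.74 (adjusted p = 0.0491), a call lost in 22 of 34 alternatives and turned with the covariate, to 0.66 (adjusted p = 0.0303). MYOD1 and MYF6 stayed at the bottom of the scale.

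Genes of calcium handling and energy supply in striated muscle had 3 of 11 higher with 5HT plus Fluox and 4 of 11 with no agents, with 0 lower, and the counts higher were near the 28.3% and 29.4% over all probe sets. PYGM, muscle glycogen phosphorylase, rose by 1.55 (SE 0.65, adjusted p = 0.0488) with 5HT plus Fluox and by 1.89 (SE 0.65, adjusted p = 0.0206) with no agents, and the call with 5HT plus Fluox was lost in 22 of 33 alternatives. The call with no agents was lost without stretched no-agent array 2 (adjusted p = 0.0522). CKMT2, the mitochondrial creatine kinase of sarcomeres, rose by 0.74 with no agents (adjusted p = 0.000837). ATP2A1 in both comparisons, CKM with no agents and CASQ2 with 5HT plus Fluox were the other calls, all at the bottom of the scale. ATP2A2, the calcium pump SERCA2, had 4 probe sets that did not read alike. That of the highest mean was not called (-0.20 with 5HT plus Fluox and 0.099 with no agents), while a second bright one was lower with 5HT plus Fluox (-1.31, adjusted p = 0.0151) and not called with no agents (-0.89, adjusted p = 0.0813). The other two were not called (-1.03 and -0.47 with 5HT plus Fluox, -0.81 and -0.071 with no agents).

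**Figure D4:**
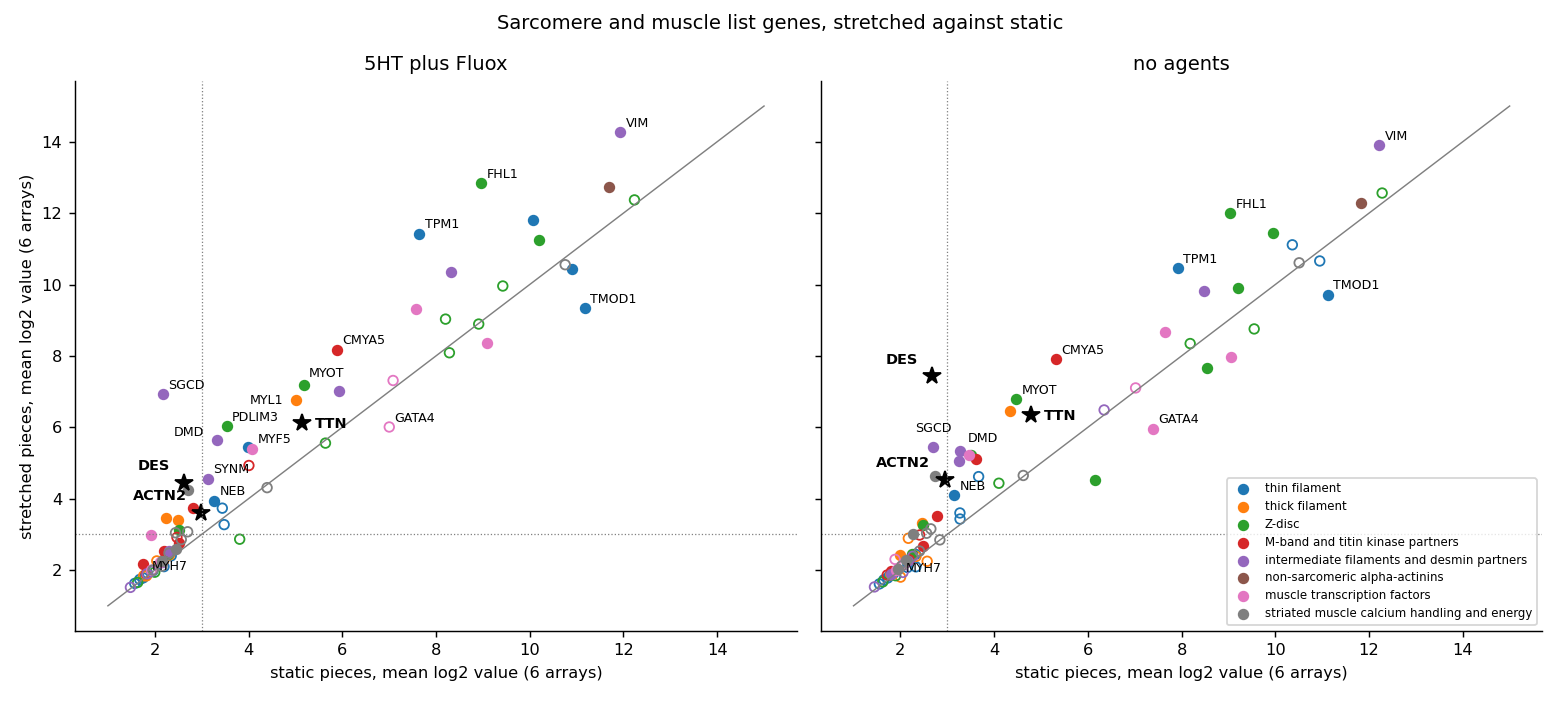
Mean log2 value in stretched pieces (vertical) against static pieces (horizontal) for the 79 measured list genes, with 5HT plus Fluox at the left and no agents at the right. Filled points passed the test, open points did not, black stars are the leading probe sets of DES, ACTN2 and TTN (not tested), the diagonal marks equal levels and dotted lines at 3 the bottom of the scale. FHL1, TPM1, VIM, SGCD and CMYA5 stand above the diagonal in both panels and TMOD1 below it.

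Of 17 cardiac markers 12 were measured, and 9 of them (MYH7, TNNI3, TNNT2, TNNC1, MYL2, MYL3, NPPA, NPPB and CASQ2) were at the bottom of the scale in all groups. Their mean per array lay between 2.42 and 2.63 in stretched and 2.33 and 2.63 in static pieces with 5HT plus Fluox, and between 2.52 and 2.72 in stretched and 2.41 and 2.78 in static pieces with no agents. ACTC1, the cardiac actin, averaged 3.43 ± 0.70 in stretched and 3.27 ± 0.60 in static pieces with no agents (SD, n = 6 each). In each stretch comparison 1 of the 12 was higher, NPPA with no agents (by 0.16) and CASQ2 with 5HT plus Fluox (by 0.14), and 0 were lower, beside 29.4% and 28.3% higher over all probe sets. Those counts take each gene's probe set of the highest mean, and 2 markers read otherwise through another one. PLN, phospholamban, the inhibitor of the SERCA2 pump, was not called by the first (0.029 with no agents, adjusted p = 0.952) but was higher by its other probe set, by 1.14 with 5HT plus Fluox (adjusted p = 0.0144) and 1.22 with no agents (adjusted p = 0.0106). RYR2, the cardiac calcium release channel, was not called by the first (0.51 with no agents, adjusted p = 0.106), and its 2 other probe sets, at the bottom of the scale with no agents, were higher there by 0.38 (adjusted p = 0.0114) and 0.18 (adjusted p = 0.0185). Of 13 skeletal muscle markers 8 were measured, 7 of them at the bottom of the scale in all groups. Their mean per array was 2.04 to 2.33 in stretched and 1.88 to 1.95 in static pieces with 5HT plus Fluox, and 1.95 to 2.33 in stretched and 1.83 to 1.95 in static pieces with no agents. Of the 8, 2 were higher with 5HT plus Fluox and 5 with no agents, beside 28.3% and 29.4% over all probe sets. MYH2, the only one not at the bottom in all groups, was not called with no agents (limma, adjusted p = 0.0648). The 5 calls there were thus of genes at the bottom of the scale, with differences of at most 0.43, so nothing is read from that count.

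Of 12 smooth muscle markers 9 were measured. With 5HT plus Fluox 8 were higher in stretched pieces and 1 was not called, and with no agents 4 were higher and 5 not called, beside 28.3% and 29.4% higher over all probe sets. Their mean per array was 8.27 to 9.62 in stretched and 6.61 to 7.22 in static pieces with 5HT plus Fluox, and 7.58 to 8.95 in stretched and 6.18 to 8.24 in static pieces with no agents. ACTA2, smooth muscle actin, averaged 8.92 ± 1.23 in stretched and 6.66 ± 1.88 in static pieces with no agents, and CNN1, calponin, 8.06 ± 0.62 in stretched and 4.89 ± 1.13 in static pieces (SD, n = 6 each). The call of ACTA2 with no agents ended with the covariate (adjusted p = 0.129). Between 5HT plus Fluox and no agents in stretched pieces 0 of these 9 were called, and ACTA2 read 10.10 ± 0.56 with 5HT plus Fluox, where DES had its lower stretched level. MYH11 was not measured through a probe set of a single symbol, and MYLK was at the bottom of the scale in all groups.

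Of 9 measured fibroblast markers 7 were higher, 1 lower and 1 not called in each stretch comparison (over all probe sets 28.3% higher and 23.9% lower with 5HT plus Fluox, 29.4% and 23.1% with no agents), with array means of 10.9 to 11.1 in stretched and 8.45 to 9.09 in static pieces with 5HT plus Fluox, and 10.0 to 11.1 in stretched and 8.44 to 9.33 in static pieces with no agents. Of 9 endothelial markers 5 were lower and 4 not called with 5HT plus Fluox, and 7 lower and 2 not called with no agents (23.9% and 23.1% lower over all probe sets), with array means of 3.27 to 3.75 in stretched and 4.80 to 5.68 in static pieces with 5HT plus Fluox, and 3.33 to 3.56 in stretched and 3.99 to 5.49 in static pieces with no agents. Of 7 measured macrophage and leukocyte markers 4 were lower in each comparison, beside the same shares, and 1 was higher with 5HT plus Fluox. The part of a changed mix of cells in the levels of DES, ACTN2 and TTN was not tested.

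**Figure D5:**
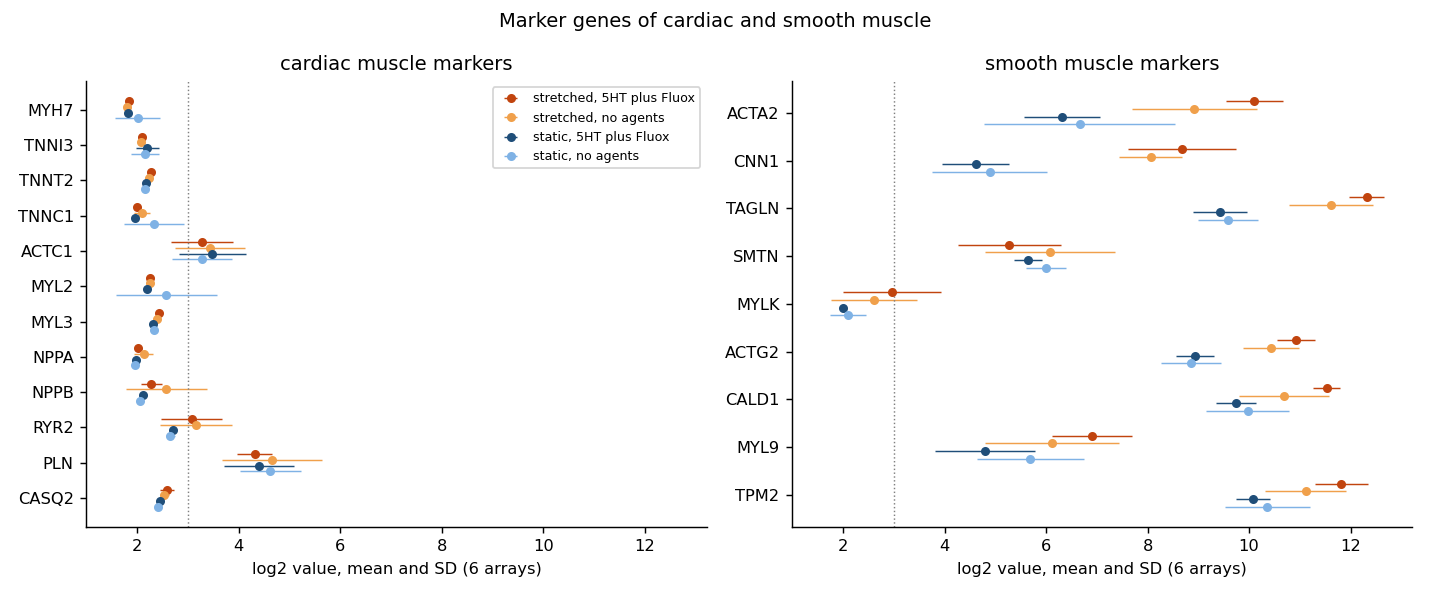
Mean and SD (6 arrays) of the log2 value of the measured cardiac muscle markers at the left and smooth muscle markers at the right in the 4 groups, with the dotted line at 3 marking the bottom of the scale. Of the 12 cardiac markers 9 stay under 3 in all groups, while ACTA2, CNN1 and TAGLN are higher in both stretched groups than in both static groups.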

How the data were processed

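Per the submitters' processing notes the authors summarised the arrays with Partek and GCRMA, whose versions were not stated, and deposited log2 values per probe set, used here as they are. The authors also deposited an analysis of variance table with p-values and signed fold changes (other units), from which only the values attributed to it were taken. Symbols came from the platform annotation: of the 23999 probe sets left after 124 controls, 10069 had 1 symbol, 198 several and 13732 none. The 24 arrays entered a single limma 3.58.1 fit (lmFit, eBayes, R 4.3.3) with a mean for each of the 4 groups, two-sided, with Benjamini-Hochberg adjustment over all 23999 and a threshold of 0.05. The fit was tested on simulated data.

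The 3 genes, the 8 gene lists and the markers were chosen with earlier results of these data known. Named list genes came from the 4 of smallest p per list and comparison and from a fixed list of symbols (ACTN1, VIM, ACTA2, CNN1, cardiac myosins, troponins and actin). PDLIM4, PDLIM7, TPM3, ATP2A2, NPPA, PLN, RYR2 and the keratins were named after their values were seen. The most alike were the 5 of highest r over the arrays. Genome positions and sequences were not used here. Same-numbered arrays of 2 groups did not deviate together throughout (1 to 5 of 6 pairs had r above 0.1), so numbers were not taken as pairs. No 2 arrays were identical (highest r 0.996).

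Alternatives were the replicate number as a block, trend and robust variances, no moderation, dim probe sets (mean under 4) left out, quantile normalization, centring on probe sets of a mean of at least 8, only the groups compared, array weights, the 3′ to 5′ difference as covariate, averaged probe sets or a mean of at least 5 for list genes, and each array left out. Leaving out the 3 arrays of a 3′ to 5′ difference over 2.5 was added after seeing the data.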

Additional observations from a re-analysis of the deposited data

Results flagged for a closer look

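Of 24 sets of 6 arrays checked (6 probe sets in 4 groups), 7 held an array whose gap to its nearest neighbour was a larger share of the whole range than Dixon's 95% critical value, a limit that chance passes in about 1 of 20 sets. The leading DES probe set did so in static pieces with no agents, where array 1 read 3.12. The other DES probe set did so in all 4 groups, with a highest array of 2.54 in stretched pieces with 5HT plus Fluox, 2.70 in stretched pieces with no agents, 1.99 in static pieces with 5HT plus Fluox and 5.33 in static pieces with no agents. The other ACTN2 probe set did so in static pieces, with a highest array of 1.78 with 5HT plus Fluox and a lowest array of 1.57 with no agents. All but the 5.33 of static no-agent array 3 and the 3.12 lie at the bottom of the scale, where the range of a group is small. On static no-agent array 3 the leading DES probe set read 2.56.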

How the results depend on the processing

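Changing the processing kept the direction of the stretch difference of the leading DES, ACTN2 and TTN probe sets in every alternative run. Of the values recomputed, the alternatives that kept every array or left out 3 gave 396 with the same direction and call, 43 moved, 7 newly called and 9 with the sign turned. With the 3′ to 5′ covariate the stretch difference of DES was 6.55 with no agents and 4.32 with 5HT plus Fluox. Array weights, which gave stretched no-agent array 3 a weight of 3.43, put ACTN2 at 2.57 with no agents.

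The probe sets called for stretch with no agents numbered 8121 without dim probe sets and 5176 with the covariate, and with 5HT plus Fluox 3721 with the covariate. List genes higher with no agents numbered 15 without dim probe sets, 55 after centring, 21 with only the groups compared and 17 with the covariate. With 5HT plus Fluox they numbered 18 without dim probe sets, 60 after centring and 16 with the covariate. Of the 31 list genes with a mean of at least 5 in their highest group, 17 were higher and 5 lower with no agents, and 18 and 3 with 5HT plus Fluox. Genes high only in stretched pieces pass that limit through that group, and no share over all probe sets at that limit is given, so nothing is read from these counts of 31. List genes lower were 0 with the covariate in both stretch comparisons, and with 5HT plus Fluox 1 after quantile normalization, after centring and without the 3 arrays of high 3′ to 5′ difference. Only in the dim filter and the mean limit does the construction (fewer probe sets) show the cause, and otherwise the cause was not tested.

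For 5HT plus Fluox in stretched pieces the probe sets called numbered 9 with trend and robust variances, 3 without dim probe sets, 31 after quantile normalization, 26 after centring, 0 with only the groups compared, 3733 with array weights, 5 with the covariate, 7 without moderation and 321 without the 3 arrays. DES was called with array weights (-3.66) and without the 3 arrays (-3.06), and ACTN2 with array weights (-1.95). The other ACTN2 probe set was called with array weights (-0.27). List genes higher numbered 10 with array weights and 1 without the 3 arrays, and 2 were lower with array weights. The sign turned for the other DES probe set with array weights (0.017) and for the other TTN probe set after centring (0.041), with array weights (0.0044) and without the 3 arrays (0.15).

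In static pieces 0 probe sets were called with trend and robust variances, without dim probe sets, after centring or with only the groups compared. The sign turned for DES with the covariate (0.0039) and for the other TTN probe set after centring (0.016). For the interaction 2174 probe sets were called with array weights and 2 without the 3 arrays. With array weights DES (-3.64), ACTN2 (-1.99) and the other ACTN2 probe set (-0.28) were called, 5 list genes were higher and 2 lower, and the other TTN probe set turned to 0.16. It was 0.026 after centring and 0.16 without the 3 arrays.

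With each array left out in turn the probe sets called ranged between 10141 and 14722 for stretch with no agents, 10949 and 13363 with 5HT plus Fluox, 0 and 1647 for the agents in stretched pieces, 1 and 4 in static pieces, and 0 and 2 for the interaction. List genes higher ranged between 26 and 44 for stretch with no agents and 28 and 36 with 5HT plus Fluox, and lower ones between 4 and 6, and 1 and 4. For the agents in stretched pieces the list genes higher ranged between 0 and 2 and those lower between 0 and 1. For the agents in stretched pieces DES ranged between -3.88 and -2.52, ACTN2 between -1.14 and -0.57, TTN between -0.40 and 0.035, the other DES probe set between -0.21 and 0.0098 and the other TTN one between -0.27 and 0.14. In static pieces DES ranged between -0.084 and 0.027, ACTN2 between -0.035 and 0.090 and the other TTN probe set between -0.12 and 0.16. For the interaction the other TTN probe set ranged between -0.27 and 0.14.

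With replicate numbers as a block (no pairing of arrays is given by the labels) the calls were 12899 and 12946 for stretch with no agents and with 5HT plus Fluox, 1 and 1 for the agents in stretched and static pieces, and 0 for the interaction. DES in stretched pieces then had an adjusted p of 0.125 and ACTN2 of 0.175, so no member call changed. Of 6 arrays, 1 correlated best with its own number for stretch with no agents, 0 with 5HT plus Fluox, 1 for the agents in stretched and 3 in static pieces. DES other, ACTN2 leading and ACTN2 other had no value without dim probe sets, since their means were under 4. Levels under 3 limit what can be read of DES, ACTN2 and most cardiac genes.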
